A study of Rattus norvegicus with 9 samples.

Results

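The metabotropic glutamate receptors were followed here through the 12 probe sets that name 1 of 7 receptor genes alone, out of 31042 probe sets and 14217 genes on the array. The genes were Grm5 of group I, Grm2 and Grm3 of group II, and Grm4, Grm6, Grm7 and Grm8 of group III. Probe sets were matched to members by gene name only, and no probe set named a member together with another gene. The members themselves were chosen with earlier results of these data known. RNA came from dendrites cut with glass pipettes from untreated hippocampal neurons of Sprague-Dawley rats, taken at embryonic day 19 and kept for 14 days in dispersed culture, each pool drawn from multiple cells. It was amplified and hybridised to 9 Affymetrix arrays, 3 for pools of 100, 3 for pools of 200 and 3 for pools of 400 dendrites. The labels call the cells pyramidal neurons, and the study states that axons could not be told from dendrites by shape, so that the pools hold some axonal RNA. The comparisons asked which receptor transcripts gave signal in dendrites, whether groups I, II and III differed, and whether pool size mattered for any of them.

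Metabotropic glutamate receptors are class C G protein-coupled receptors that sense glutamate through a large extracellular domain and adjust how strongly synapses transmit. Group I receptors couple to Gq, release calcium from internal stores and sit mainly around the postsynaptic density of dendritic spines, where they drive a form of long-term depression that needs protein synthesis in the dendrite. Groups II and III couple to Gi and Go, lower cyclic AMP and are best known as brakes on transmitter release from axon terminals, although Grm3 is also made by astrocytes and Grm6 serves on the dendrites of ON bipolar cells in the retina.

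Receptor genes gave low to middling signal, while 1 probe set of Grm8 was among the brightest on the array. Values are log2 signals from RMA, which corrects for background, brings the arrays to a common distribution and summarises each probe set in 1 number. The gene value was the median of its probe sets. Since signal depends on how well a probe binds, levels of different genes are given as percentiles of signal rank, which order brightness and not amounts of RNA. By the median rank over 9 arrays, Grm2 stood at the 67.0 percentile of 14217 genes, Grm4 at 66.7, Grm6 at 43.7, Grm3 at 36.0, Grm8 at 18.4, Grm5 at 10.9 and Grm7 at 1.92. Of the 7 receptors 2 were above the 50th percentile and 0 were in the top 5%. Their median was 36.0, against 49.99 for all genes. Among 39 measured genes of other organs 14 were above the 50th percentile and 3 in the top 5%, with a median of 31.4. Signal rank alone therefore does not show which receptor transcripts were present, and presence was not tested. Since each array measured a pool, fewer cells or dendrites carrying a transcript and less of it in each cannot be told apart.

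Grm8, a presynaptic autoreceptor with high affinity for glutamate, was the member whose value rested most on the choice of probe set. Probe set 1371242_at was at 11.75, 11.85 and 11.97 log2 units in pools of 100 dendrites, at 11.61, 11.77 and 12.02 in pools of 200, and at 11.49, 11.92 and 11.75 in pools of 400. It averaged 11.79 ± 0.17 (SD, n = 9) and stood between the 97.7 and 98.7 percentiles of probe sets on every array. It was thus bright on all 9 arrays, and the values of the pool sizes overlapped.

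The other probe sets of Grm8 were far dimmer. Probe set 1369391_at was at 6.34, 5.51 and 6.52 in pools of 100, at 8.06, 5.39 and 5.55 in pools of 200, and at 6.05, 7.10 and 6.03 in pools of 400. Probe set 1371243_at was at 6.12, 6.02 and 6.82 in pools of 100, at 5.68, 6.05 and 5.67 in pools of 200, and at 6.59, 5.54 and 6.52 in pools of 400. Both averaged near 6 log2 units, 6.28 ± 0.86 and 6.11 ± 0.45 (SD, n = 9), and 1 array of a 200-dendrite pool lay apart from the others for 1369391_at. The bright probe set and 1371243_at were designed from the same sequence record, yet differed by 4.90 to 6.38 log2 units on the 9 arrays, with a median of 5.72.

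A gap of this size between probe sets of 1 gene was uncommon. The means of the brightest and dimmest probe sets of Grm8 lay 5.68 log2 units apart, which was wider than in 98.1% of the 4525 genes with more than 1 probe set, and only 24 of the 1036 genes with 3 probe sets had a wider one. The median gap was 1.54 over all such genes and 2.02 over those with 3 probe sets. The spread of 1371242_at over the arrays was also small, with 20.1% of 613 probe sets of like level (within 0.5 log2 units) having a smaller SD. The middle value that served as the gene value came from 1371243_at on 6 arrays and from 1369391_at on 3. With the brightest probe set as the gene value, Grm8 moved to the 98.0 percentile. Which of these readings follows Grm8 mRNA was not tested.

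**Figure D1:**
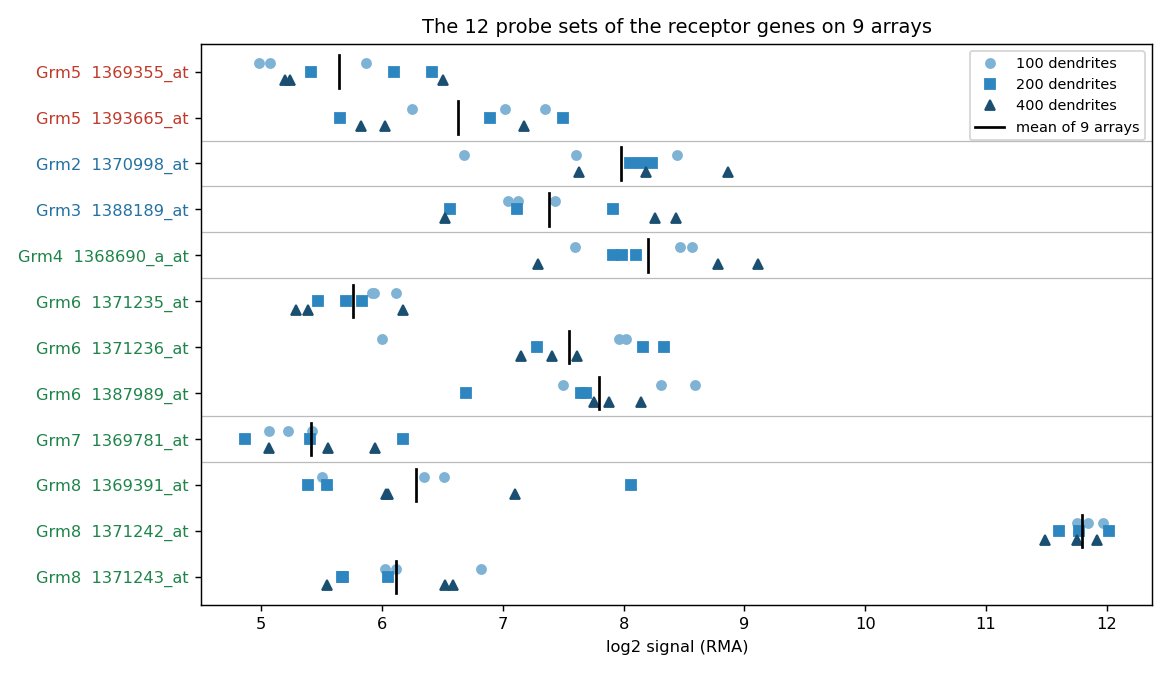
Log2 signal (horizontal axis) of the 12 probe sets on 9 arrays, with circles, squares and triangles for pools of 100, 200 and 400 dendrites and black bars for the mean of 9 arrays. Names are red for group I, blue for group II and green for group III. Probe set 1371242_at of Grm8 averaged 11.79, and the means of the other 11 lay between 5.41 for Grm7 and 8.20 for Grm4.

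Group I was represented by Grm5, the main Gq-coupled receptor of hippocampal pyramidal neurons, which the scaffold Homer ties to the postsynaptic density. Its gene value was at 6.16, 6.06 and 6.04 in pools of 100 dendrites, at 6.80, 5.53 and 6.65 in pools of 200 and at 6.26, 5.53 and 6.19 in pools of 400. The 100-dendrite pools lay close together, inside the range of the larger pools. On single arrays Grm5 stood between the 4.69 and 28.2 percentiles.

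The pair of probe sets for Grm5 differed in level, and their correlation did not pass. Probe set 1393665_at averaged 6.63 ± 0.70 (SD, n = 9) and stood at the 34.1 percentile of probe sets, and 1369355_at averaged 5.64 ± 0.59 and stood at the 3.30 percentile. The first was the brighter on 8 of 9 arrays. Their gap of 0.99 log2 units was below the median of 1.20 for genes with 2 probe sets. Across the 9 arrays their values had a Pearson r of -0.12 (exact permutation p = 0.749, adjusted 0.874 over the 7 pairs of probe sets from 1 gene) and a Spearman rho of -0.28 (exact permutation p = 0.463, adjusted 0.880).

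Group II receptors, which damp glutamate release, had a median percentile of 51.5 and moved widely between arrays. Grm2, found in neurons and mostly on axons, was at 6.67, 7.61 and 8.44 in pools of 100 dendrites, at 8.24, 8.14 and 8.05 in pools of 200, and at 8.86, 7.63 and 8.18 in pools of 400. The 200-dendrite pools lay close together, and both other sizes spread to either side of them. Grm3, which neurons share with astrocytes, was at 7.13, 7.43 and 7.04 in pools of 100, at 7.11, 7.91 and 6.56 in pools of 200, and at 8.43, 6.52 and 8.26 in pools of 400. Here the 400-dendrite pools held the highest and the lowest of the 9 values. Each gene had 1 probe set. Percentiles on single arrays ran between 25.6 and 81.7 for Grm2 and between 22.2 and 72.6 for Grm3.

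Group III held both bright and dim members. Grm4, known from axon terminals of the cerebellum, was at 8.47, 7.59 and 8.56 in pools of 100 dendrites, at 8.10, 7.91 and 7.99 in pools of 200, and at 7.29, 8.78 and 9.11 in pools of 400. Its 1 probe set stood between the 41.2 and 85.3 percentiles of genes on single arrays. Grm7, a low-affinity receptor placed in the active zone of presynaptic terminals, was the dimmest member. It was at 5.06, 5.22 and 5.42 in pools of 100, at 5.40, 6.17 and 4.86 in pools of 200 and at 5.06, 5.56 and 5.95 in pools of 400. The percentile of Grm7 on single arrays was 0.218 to 14.8, so that it lay at or near the lower end of the array throughout.

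Grm6, the receptor of retinal ON bipolar cells, gave gene values of 6.12, 7.49 and 8.02 in pools of 100, 7.65, 6.69 and 7.28 in pools of 200, and 7.61, 7.15 and 7.41 in pools of 400. These came from probe sets of unlike level. Probe set 1371235_at averaged 5.76 ± 0.32, 1371236_at 7.55 ± 0.71 and 1387989_at 7.80 ± 0.54 (SD, n = 9). The first was the dimmest on 8 of 9 arrays, and the gap of 2.04 log2 units was close to the median of 2.02 for genes with 3 probe sets. The middle value that served as the gene value came from 1371236_at on 5 arrays, from 1387989_at on 3 and from 1371235_at on 1. The brighter probe sets 1371236_at and 1387989_at had a negative correlation over the arrays that did not pass, with a Pearson r of -0.64 (exact permutation p = 0.0768, adjusted 0.538) and a Spearman rho of -0.60 (exact permutation p = 0.0968, adjusted 0.678). Within pool sizes this r was -0.54, and without the 2 arrays farthest from the median it was -0.44. Over the 7 pairs of probe sets from 1 gene, in Grm5, Grm6 and Grm8, r was between -0.64 and 0.15, and 0 pairs passed after adjustment. Without the 2 farthest arrays these r lay between -0.44 and 0.73, the highest for 1369391_at and 1371243_at of Grm8, whose r was -0.27 over 9 arrays, and 3 of the 7 had the opposite sign.

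Genes of the retina and genes of other organs had nearly the same median rank. The median percentile was 31.6 for 10 genes of ON bipolar cells and photoreceptors, against 31.4 for 39 genes of other organs and 49.99 for all genes. Trpm1, the channel that Grm6 controls in ON bipolar cells, was at 10.41 ± 1.80 (SD, n = 9) and the 97.5 percentile, Pde6g, a phosphodiesterase subunit of photoreceptors, was at 9.81 ± 0.42 and 93.6, and Sag, a visual arrestin, was at 6.70 ± 0.74 and 19.1. Of the genes of other organs, Ctrb1 (10.89 ± 0.84) and Cela1 (10.94 ± 0.26) stood highest, at the 98.0 and 97.0 percentiles. Amy2a3 (4.99 ± 0.26) stood lowest, at 0.102.

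Read in order of percentile, neighbours were mostly not separated. Grm2 was above Grm4 on 5 of 9 arrays, and Grm6 above Grm3 on 5 of 9. Grm4 was above Grm6 on 8 of 9 arrays, by a median of 20.2 percentile points, and Grm3 above Grm8, Grm8 above Grm5 and Grm5 above Grm7 on 7 of 9 each. The ranges over the arrays overlapped for all 6 neighbouring pairs. The highest member was Grm2 on 5 arrays and Grm4 on 4, and the lowest was Grm7 on 7 arrays and Grm5 on 2.

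Between the receptor groups, group I was lowest by the median of probe sets. The median percentile was 10.9 for the 1 gene of group I, 51.5 for the 2 genes of group II and 31.1 for the 4 genes of group III. Group I was below group II on 9 of 9 arrays, with a median difference of -36.0 percentile points, and below group III on 8 of 9, with a median difference of -17.2 points. Group II was above group III on 7 of 9 arrays, by a median of 18.7 points. With the brightest probe set of each gene the medians were 23.6, 43.7 and 51.6 for groups I, II and III, so that group III stood above group II. With that choice Grm8 moved from 18.4 to 98.0, through 1371242_at, and Grm6 from 43.7 to 46.8. Grm2 and Grm3, each with 1 probe set, moved from 67.0 to 56.9 and from 36.0 to 30.5, because all genes were ranked anew. The order of groups II and III therefore turned with the choice of probe set. It compares signals of different probes and not the amount of each receptor.

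**Figure D2:**
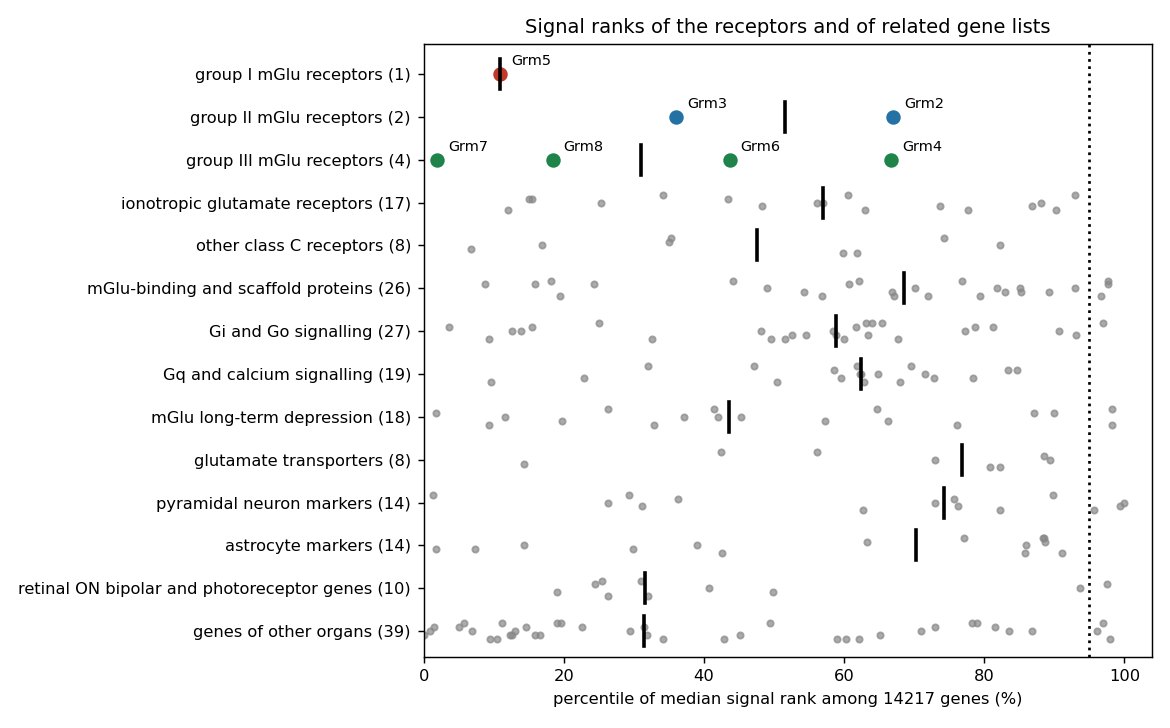
The horizontal axis is the percentile (percent) of a gene's median signal rank on the whole array, each point stands for 1 gene, and a black bar marks the median of each list, whose measured genes are counted in brackets. Receptors are coloured by group, the other lists are grey, and the dotted line marks the top 5%. Grm2 and Grm4 stood at 67.0 and 66.7 and Grm7 at 1.92, and 0 of the 7 receptors reached the dotted line.

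Genes that work with the receptors had higher median ranks than the receptors, a difference that was not tested. Of 26 measured scaffold, kinase and other proteins that bind these receptors, 19 were above the 50th percentile and 3 in the top 5%, with a median of 68.6. Calm2, a calmodulin gene, was at 11.11 ± 0.69 (SD, n = 9), Pias1, a SUMO ligase, at 11.12 ± 0.34, and Siah1, a ubiquitin ligase, at 5.87 ± 0.43. Of 27 Gi and Go signalling genes 18 were above the 50th percentile, with a median of 58.9. The G protein alpha subunits Gnai2 (10.63 ± 0.62) and Gnao1 (9.76 ± 0.57), the partners of groups II and III, were brightest, and the adenylyl cyclase Adcy8 (5.65 ± 0.34) was dimmest. Of 19 genes of Gq and calcium signalling 15 were above the 50th percentile, with a median of 62.4, among them the protein kinase C gene Prkcb (8.39 ± 0.83) and the calcium release channel Itpr1 (9.02 ± 0.71), while phospholipase Plcb2 (6.41 ± 0.67) was lowest.

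Genes tied to receptor-driven long-term depression had a lower median of 43.6, with 8 of 18 above the 50th percentile. Map1b, a microtubule protein whose dendritic synthesis Grm5 can trigger, was at 11.09 ± 0.92 (SD, n = 9), Dlg4, which encodes the scaffold PSD-95, at 11.42 ± 0.14, and Fmr1, the RNA-binding repressor lost in fragile X syndrome, at 5.91 ± 1.13. The median percentile was 57.0 for 17 ionotropic glutamate receptors, with Grik3 (9.92 ± 0.63) and Gria1 (9.52 ± 0.53) brightest and Grik1 (6.26 ± 0.59) dimmest. It was 47.6 for 8 other class C receptors, where the GABA-B receptor genes Gabbr1 (8.61 ± 0.37) and Gabbr2 (8.13 ± 0.60) led and the orphan receptor Gpr158 (5.86 ± 0.65) was last. For 8 glutamate transporters it was 76.9, with Slc1a5 (9.03 ± 0.56) and Slc1a3 (9.08 ± 0.69) first and Slc1a2 (6.43 ± 0.41) last. Differences among these lists were not tested either.

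Among cell type markers, the median percentile was 74.3 for 14 pyramidal neuron genes, 9 of them above the 50th percentile, and 70.2 for 14 astrocyte genes, 8 of them above it. Neurod2 (13.60 ± 0.18, SD, n = 9) and Nrgn (12.18 ± 0.17) were the brightest pyramidal markers and Tbr1 (5.55 ± 0.41) the dimmest. S100b (9.11 ± 1.57) and Atp1b2 (9.17 ± 0.20) were the brightest astrocyte markers and Gjb6 (5.46 ± 0.38) the dimmest. The mean log2 level of the astrocyte list was 7.80 to 8.37 in pools of 100, 7.29 to 8.22 in pools of 200 and 7.48 to 8.35 in pools of 400 dendrites. Its part in the signal of Grm3 and Grm5, which astrocytes also transcribe, was not tested. The median percentile was 57.1 for 14 oligodendrocyte lineage genes (Olig2 at 8.87 and Mag at 8.42 brightest, Mobp at 5.55 dimmest). For 14 interneuron genes it was 49.1 (Calb2 at 9.44 and Calb1 at 8.10, Dlx5 at 5.94). For 14 endothelial and mural genes it was 33.5 (Vwf at 12.89 and Esam at 11.61, Tek at 6.02). For 13 microglia genes it was 28.7 (C1qc at 8.55 and C1qb at 8.62, Tyrobp at 5.62). Vwf thus lay between Neurod2 and Nrgn in signal. Arrays had mean correlations with the other 8 of 0.749 to 0.839 over probe sets, lowest for replicate 1 of the 400-dendrite pools and next lowest, at 0.777, for replicate 1 of the 100-dendrite pools. In the Affymetrix controls the 3' probe sets of GAPDH exceeded the 5' ones by 0.84 to 2.99 log2 units. This difference was -0.43 to 2.41 for beta-actin and -1.91 to 1.15 for hexokinase.

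No receptor gene passed the test of 400 against 100 dendrites. By limma, 0 of 7 genes passed for 400 against 100 dendrites, where 0% of all genes did, and 0 of 7 had an unadjusted p under 0.05, against 2.41% of all genes. The 2 pool sizes overlapped in all 7 genes, where 6.25% of all genes did not overlap, and likewise in all 12 probe sets, where 6.17% of all probe sets did not. Grm2 was at 8.22 ± 0.62 with 400 dendrites and 7.57 ± 0.88 with 100 (SD, n = 3 each), which gave a difference of 0.65 (95% interval -0.40 to 1.70, log2 units, limma adjusted p = 0.999). Grm3 was at 7.74 ± 1.06 with 400 dendrites and 7.20 ± 0.20 with 100, which gave 0.54 (-0.62 to 1.70). Single arrays decided these values. With replicate 1 of the 400-dendrite pools left out Grm3 differed by 0.19, and with their replicate 2 left out by 1.15 (limma unadjusted p = 0.0289), while Grm2 differed by 0.20 with replicate 1 of the 100-dendrite pools left out and by 1.08 with their replicate 3 left out (limma unadjusted p = 0.0466). For the others the differences were 0.34 for Grm8, 0.29 for Grm7, 0.19 for Grm4, 0.18 for Grm6 and -0.10 for Grm5, with standard errors of 0.41 to 0.56. Thus 6 of 7 were above 0, where 51.5% of all genes were, and the median was 0.29 against 0.02 for all genes.

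That count of 6 changed with the arrays kept and with the gene value used. It was 4 of 7 without replicate 1 of the 100-dendrite pools and replicate 1 of the 400-dendrite pools together, and Grm2 then differed by -0.12. Both arrays were chosen after seeing the data, and they hold the lowest (6.67) and the highest (8.86) value of Grm2. Leaving them out therefore had to lower the difference of Grm2. The count was also 4 of 7 with the brightest probe set of each gene, where Grm8 differed by -0.14 and Grm6 by -0.21. Of the 12 probe sets 7 were above 0, with a median of 0.13. Probe sets of Grm8 differed by 0.27, -0.14 and -0.10, all below the 0.34 of the gene value. Those of Grm6 differed by -0.37, 0.0645 and -0.21, all below the 0.18 of the gene value. The gene value is taken on each array and changed between probe sets.

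**Figure D3:**
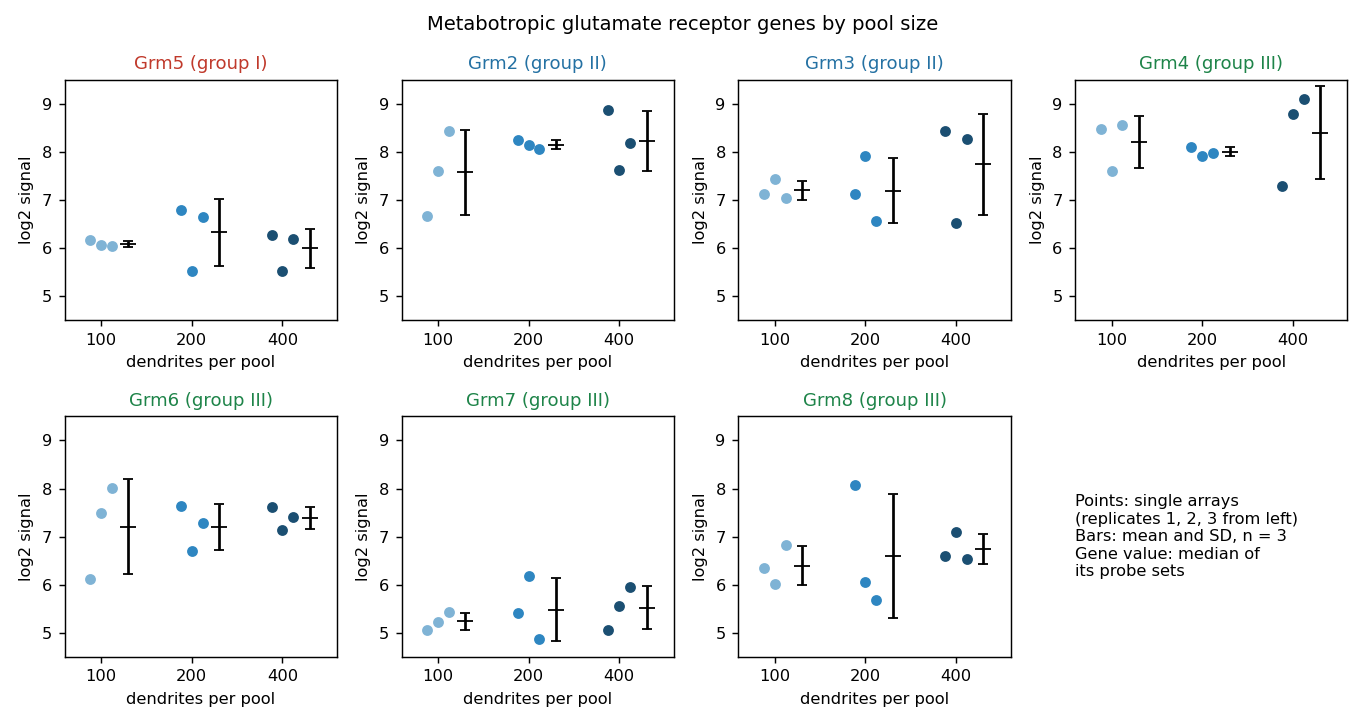
Log2 signal (vertical axes, the same range in each panel) of the 7 receptor genes in pools of 100, 200 and 400 dendrites (horizontal axes). Each array is 1 point, and error bars to the side give mean and SD (n = 3). Pool sizes overlapped in every panel, with Grm2 at 7.57, 8.14 and 8.22 and Grm7 at 5.24, 5.48 and 5.52.

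Between 200 and 100 dendrites 4 of 7 receptors had positive differences, where 50.1% of all genes did, and 2 of 7 with the brightest probe set of each gene. Grm2 was at 8.14 ± 0.09 with 200 dendrites and 7.57 ± 0.88 with 100 (SD, n = 3 each), a difference of 0.57 (-0.48 to 1.62). Leaving out replicate 1 of the 100-dendrite pools gave 0.12, and leaving out their replicate 3 gave 1.002. The remaining differences were between -0.21 for Grm4 and 0.24 for Grm7. By limma 0 of 7 passed (0% of all genes) and 0 of 7 had an unadjusted p under 0.05 (3.03% of all genes), and 0 of 7 were without overlap (7.8% of all genes). Among the 12 probe sets 1 was without overlap, where 7.4% of all probe sets were. It was 1371235_at of Grm6, at 5.83, 5.70 and 5.47 in pools of 200 and 6.12, 5.92 and 5.94 in pools of 100, a difference of -0.32 (limma adjusted p = 0.9998). Probe set 1387989_at of the same gene had the smallest p of the 12 in this contrast, with a difference of -0.79 (-1.74 to 0.16), while 1371236_at differed by 0.60 in the opposite direction.

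Between 400 and 200 dendrites 6 of 7 receptors had positive differences, where 51.1% of all genes did. With the brightest probe set of each gene 5 of 7 did, and of the 12 probe sets 7 did. This contrast shares its 400-dendrite arrays with the first. Grm3 differed by 0.55 (-0.61 to 1.70), Grm4 by 0.39 (-0.67 to 1.46), and Grm5 by -0.33 (-1.24 to 0.57). Here too single arrays weighed heavily. With replicate 1 of the 400-dendrite pools left out Grm3 differed by 0.20, with their replicate 2 left out by 1.15 (limma unadjusted p = 0.0283) and with replicate 2 of the 200-dendrite pools left out by 0.90. Grm4 differed by 0.95 with replicate 1 of the 400-dendrite pools left out (limma unadjusted p = 0.0396) and by 0.0376 with their replicate 3 left out. Over all 9 arrays 0 of 7 passed by limma (0% of all genes), 0 of 7 had an unadjusted p under 0.05 (2.3% of all genes), and 0 of 7 were without overlap (6.77% of all genes). Of the 12 probe sets 1 was without overlap, where 6.57% of all were: 1387989_at of Grm6, at 7.75, 7.87 and 8.14 in pools of 400 and 7.65, 6.69 and 7.69 in pools of 200, a difference of 0.58 (limma adjusted p = 0.9998).

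By receptor group, the median difference for 400 against 100 dendrites was -0.10 in group I, 0.60 in group II and 0.24 in group III. It was 0.24, 0.28 and 0.10 for 200 against 100 dendrites and -0.33, 0.31 and 0.16 for 400 against 200. The groups held 1, 2 and 4 genes, and the differences between groups were not tested. Over the 3 pool sizes together, 0 of 7 receptors passed the moderated F (0% of all genes) or the slope per doubling of the pool (0% of all genes). The slope was largest for Grm2, at 0.33 ± 0.23 log2 units per doubling (SE). The 95% intervals of the 7 genes reached 0.90 to 1.23 log2 units to either side of the difference. These intervals are not adjusted for the number of genes, so that a difference had to be larger than this to pass.

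**Figure D4:**
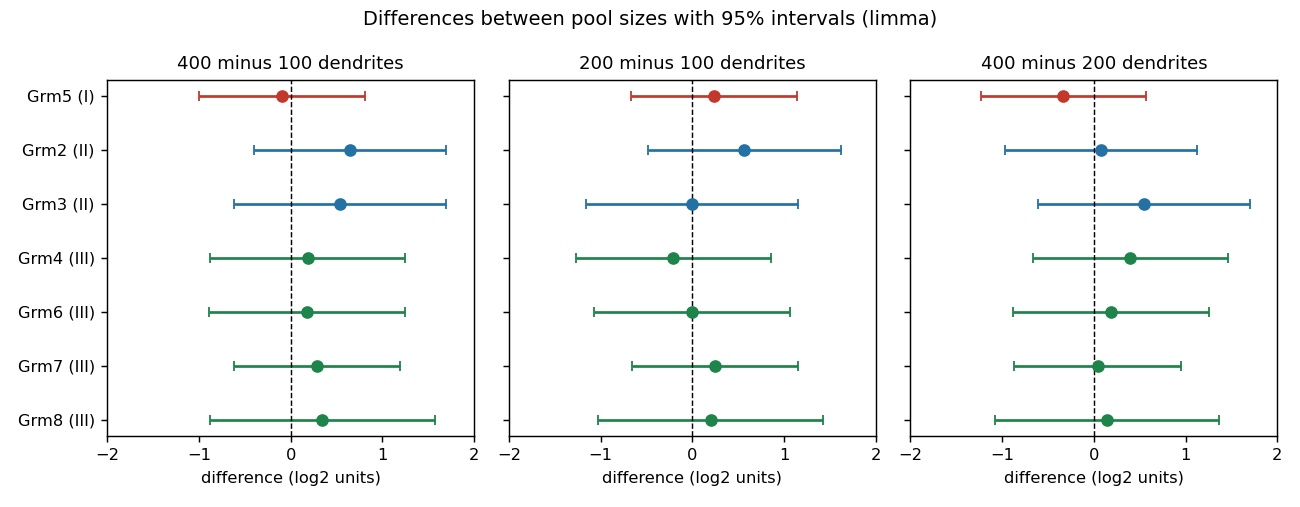
Differences in log2 units (horizontal axes) with 95% intervals from limma for 7 receptor genes, in the contrasts 400 minus 100, 200 minus 100 and 400 minus 200 dendrites. All 21 intervals include 0, the largest difference being 0.65 for Grm2 in 400 minus 100 dendrites.

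Partner genes likewise gave 0 calls between pool sizes. For 400 against 100 dendrites 0 of 26 binding and scaffold genes, 0 of 27 Gi and Go genes, 0 of 19 Gq and calcium genes, 0 of 18 long-term depression genes, 0 of 17 ionotropic receptors, 0 of 8 other class C receptors and 0 of 8 transporters passed by limma (0% of all genes). An unadjusted p under 0.05 was reached by 1 of the 26 binding and scaffold genes and 1 of the 18 long-term depression genes, and by 0 in the other lists (2.41% of all genes). The gene of smallest p was Grk2, a kinase that turns off G protein-coupled receptors, among binding proteins (9.10 ± 0.76 with 400 dendrites and 7.86 ± 0.34 with 100, SD, n = 3 each, difference 1.24, limma adjusted p = 0.999). It was Arc, an activity-induced gene whose mRNA is carried into dendrites, among long-term depression genes (7.58 ± 0.26 with 400 dendrites and 6.38 ± 0.38 with 100, difference 1.20, limma adjusted p = 0.999). Without overlap between these pool sizes were 3 of 26 binding and scaffold genes, Grk2 among them, 2 of 27 Gi and Go genes, Adcy9 among them, 2 of 18 long-term depression genes, Arc among them, and 0 in the other lists of partner genes (6.25% of all genes). In the other lists it was Adcy9 (difference 0.89, an adenylyl cyclase), Trpc5 (0.59, a cation channel), the orphan receptor Gpr158 (0.74), the NMDA receptor subunit gene Grin3a (-0.54) and the glutamate transporter gene Slc1a2 (-0.29).

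Correlations between receptors over the arrays did not pass. Among the 21 pairs of receptor genes Pearson r had a median of 0.17 and lay between -0.58 (Grm5 and Grm7) and 0.76 (Grm2 and Grm6), and 0 pairs passed after adjustment over the 21. Grm2 and Grm6 had an r of 0.76 (exact permutation p = 0.0221, adjusted 0.464) and a rho of 0.73 (exact permutation p = 0.0311) over 9 arrays. Within pool sizes this r was 0.83 (exact permutation p = 0.00699, adjusted 0.147). Without the 2 arrays farthest from the median of Grm2 the r over the arrays was 0.37, a step that also narrows the range of Grm2. Grm2 and Grm6 were both at their lowest, 6.67 and 6.12, on replicate 1 of the 100-dendrite pools. The value of Grm6 there came from 1371235_at, which was the middle probe set on that 1 array only. On the same array 1371236_at was at 6.00, while 1387989_at was at 8.59, its highest of the 9 arrays. The low value of Grm6 was thus not shared by all its probe sets. Pairs within a receptor group had a median r of 0.24 (7 pairs), and pairs across groups 0.12 (14 pairs).

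The genes whose values over the 9 arrays were most like each receptor, by Pearson r among all genes, were of mixed kinds. They are given as a description only, since each is among the highest values of a search over all genes. For Grm5 they were Pusl1 (r = 0.94), Il11 (0.93) and Prl5a1 (0.92). For Grm2 they were Hyou1 (0.96), Azi2 (0.94) and Rttn (0.94), and for Grm3 Cdkn2aip (0.93), Thbd (0.93) and Lamtor4 (0.91). For Grm4 they were Trappc14 (0.95), Lamp3 (0.94) and Slc32a1, the vesicular GABA transporter (0.93). For Grm6 they were Dkc1 (0.98), Chrna5 (0.97) and Lat (0.97), for Grm7 Sgo1 (0.91), Rab32 (0.90) and Necab2 (0.89), and for Grm8 Nf2 (0.96), Ada (0.95) and C12h7orf50 (0.95). Spearman rho for these 21 genes was between 0.77 and 0.98, and no gene was named for more than 1 receptor.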

How the data were processed

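Biotin-labelled RNA from 9 dendrite pools was measured on Affymetrix rat arrays after repeated linear amplification, which favours the 3' ends of transcripts. Per the labels, the authors summarised each probe set with RMA 2.0, and the deposited log2 values have array medians of 7.46 to 7.53. The median centring and percentile scaling of the study's methods are not in them. Here 57 control probe sets were set aside, and 31042 were tested without a filter. The platform's gene table named 1 gene for 20826 probe sets, several for 436 and none for 9780. Symbols of 20758 were updated by Entrez ID through the RefSeq gene table. Differences were fitted with limma 3.58.1 (R 4.3.3) in 1 model of 9 arrays with the pool size as factor, two-sided, with Benjamini-Hochberg adjustment over all genes or all probe sets and a threshold of 0.05. Correlations between receptors, and between probe sets of 1 gene, used exact two-sided permutation tests over 362880 orderings. Other steps used Python 3.11.15, numpy 2.4.6, scipy 1.17.1, pandas 2.3.3 and matplotlib 3.10.9.

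The members and gene lists were chosen with earlier results of these data known. The text names all members, the 2 highest and the lowest gene of each list, the gene of smallest p for 400 against 100 dendrites in the lists of partner genes, and the 3 genes most correlated with each receptor. The fit was tested on simulated data with known differences between 400 and 100 dendrites. Of 50 probe sets each, it recovered 0 at a difference of 1 log2 unit, 9 at 2, 30 at 3 and 41 at 4. It made 5 false calls. Counts of 0 therefore do not speak to differences of 1 log2 unit or less. They say little about differences of 2, most of which were missed, and do not exclude differences of 3 or 4. The labels call the arrays biological replicates without naming cultures or animals, so p-values measure the spread between these samples. The number of arrays limits the precision. The alternatives tried were the methods' centring and scaling, quantile normalization, the brighter part of the array, a variance trend, the methods' t-test, array weights, a replicate block, the brightest probe set per gene, other percentiles, and leaving out arrays.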

Additional observations from a re-analysis of the deposited data

How the results depend on the processing

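Counts of probe sets and genes past the threshold were 0 in every contrast under all alternatives run, the methods' t-test and the replicate block included. The block is not a paired analysis of shared cultures, since the labels do not say that a replicate number marks a shared culture. Pearson r of the deviations from the pool size means was computed between arrays of different pool sizes. Same-numbered arrays gave r of -0.20 to 0.09 (median 0.0157) and differently numbered arrays -0.19 to 0.22 (median -0.00371). These values cannot settle what the numbers mark. Unadjusted p under 0.05 was reached by 342 genes for 400 against 100 dendrites in limma, 362 with the replicate block and 408 by the methods' t-test. The smallest adjusted p of any receptor difference under any alternative was 0.864. Of the gene values only Grm2 and Grm4 passed the filter on the upper part of the array, and of the 12 probe sets 5 did, which include 1371236_at and 1387989_at of Grm6 and 1371242_at of Grm8.

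With the brightest probe set per gene the median percentile was 23.6 in group I and 51.6 in group III. Signs of receptor differences, none of which passed, turned as follows. With that probe set they were -0.21 (Grm6) and -0.14 (Grm8) for 400 against 100, -0.19 (Grm5) and -0.0570 (Grm8) for 200 against 100, and -0.0793 (Grm8) for 400 against 200 dendrites. Quantile normalization gave 0.00230 (Grm6, 200 against 100). Array weights gave -0.0806 (Grm6) and -0.23 (Grm6 1371236_at) for 400 against 100, 0.0751 (Grm3), -0.0714 (Grm8) and -0.0803 (Grm8 1369391_at) for 200 against 100, and 0.27 (Grm5 1393665_at) for 400 against 200. Without both replicates 1 of the 100- and 400-dendrite pools, chosen after seeing the data, 400 against 100 gave -0.12 (Grm2), -0.48 (Grm6), -0.25 (Grm5 1369355_at), -0.71 (Grm6 1371236_at) and 0.11 (Grm6 1387989_at), 200 against 100 gave -0.0615 (Grm6 1371236_at) and 0.05 (Grm5 1393665_at), and 400 against 200 gave -0.24 (Grm2) and 0.0373 (Grm8 1371242_at). The cause was not tested.

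Leaving out 1 array at a time turned 24 of 45 differences. The ranges here also take in the fit without both of those arrays. For 400 against 100 the ranges were -0.12 to 1.08 (Grm2), -0.17 to 0.87 (Grm4), -0.23 to 0.14 (Grm5), -0.25 to 0.62 (Grm5 1369355_at), -0.48 to 0.58 (Grm6), -0.71 to 0.41 (Grm6 1371236_at), -0.53 to 0.11 (Grm6 1387989_at), -0.0813 to 0.55 (Grm8 1369391_at) and -0.39 to 0.24 (Grm8 1371243_at). For 200 against 100 they were -0.36 to 0.31 (Grm3), -0.60 to 0.32 (Grm5 1393665_at), -0.55 to 0.40 (Grm6), -0.0615 to 0.95 (Grm6 1371236_at), -0.10 to 0.55 (Grm7), -0.53 to 0.66 (Grm8), -0.65 to 0.68 (Grm8 1369391_at) and -0.17 to 0.0397 (Grm8 1371242_at). For 400 against 200 they were -0.24 to 0.38 (Grm2), -0.85 to 0.0666 (Grm5 1393665_at), -0.33 to 0.11 (Grm6 1371235_at), -0.0755 to 0.40 (Grm6), -0.27 to 0.39 (Grm7), -0.32 to 0.88 (Grm8), -0.41 to 0.93 (Grm8 1369391_at) and -0.18 to 0.0373 (Grm8 1371242_at). Correlations between receptor genes that turned were Grm3 with Grm5 within pool sizes (0.0174) and, without the 2 arrays farthest from the median, Grm2 with Grm4 (0.25) and Grm3 with Grm6 (-0.22). Of the 7 correlations between probe sets of 1 gene, 2 turned within pool sizes (Grm6 1371235_at with 1371236_at, 0.0915, and with 1387989_at, -0.12) and 3 without the 2 farthest arrays (Grm5, 0.00688, Grm8 1369391_at with 1371243_at, 0.73, and 1371242_at with 1371243_at, 0.35).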
